A study of Mus musculus with 2 samples.

Results

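Class 3 semaphorins, Slits and their receptors were followed in mammary fibroblasts at puberty and in the virgin adult. The set held 10 genes, chosen by symbol from the 33696 genes of the deposited list: the secreted ligands Sema3a, Sema3b, Sema3c, Sema3d, Sema3e, Slit2 and Slit3, the Slit receptors Robo1 and Robo2, and the semaphorin co-receptor Nrp1. All 10 were found in both count tables, and all 10 passed a minimum of 1 CPM (counts per 1000000 UMIs) in at least 1 stage. The choice used gene names only, but it was made with earlier results of these data known.

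Female wild-type C57BL/6 mice were sampled at 4 weeks (puberty, where the study's methods give a slightly older age) and as 9-week-old virgins (adult), with no treatment or transgene. Stromal cells negative for CD24 and for lineage markers had been sorted by flow cytometry, a gate that takes away epithelial, endothelial, immune and red blood cells. One library per stage was analysed, and both carry the replicate number 2. The labels give 2 females per condition but do not map cells to animals, so there was no replicate check, no difference between the stages could be tested, and every interval below is a 95% interval for counting error only.

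Class 3 semaphorins are secreted proteins that bind neuropilins, which pass the signal on through plexins, and they steer axons, blood vessels and branching epithelia. Slits are secreted proteins that bind Robo receptors and were first known as repellents at the midline of the nervous system. In the mammary gland, Slit and Robo signalling is known to restrain branching of the ducts and to hold the cell layers of the bilayered duct together.

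The cells analysed had 500 or more detected genes, 10% or less of mitochondrial transcripts and 1 or more unique molecular identifiers (UMIs) of Pdgfra, the pan-fibroblast receptor gene. This left 18878 cells and 236676546 UMIs at puberty, and 20999 cells and 247538165 UMIs in the adult. At this depth 1 CPM stands for 237 UMIs at puberty and 248 in the adult. Median depth per cell was 12187 and 11265 UMIs. Pdgfra itself was at 379.7 and 635 CPM in these cells, and they made up 87.7% and 91.4% of all cells that passed the other filters. Dcn, Lum, Col1a1 and Col1a2, which encode matrix proteins, were detected in 97.6% or more of the cells of each stage. Detection alone does not set fibroblasts apart, since their transcripts were also found in other cells. At puberty, cells with mural markers and no Pdgfra held 2957 CPM of the summed fibroblast markers. Those with Schwann markers and no Pdgfra held 3817 CPM. Summed markers of other cell types were low, between 1.01 and 44.4 CPM for each of 7 lists at puberty and between 0.731 and 30.8 CPM in the adult, beside 32284 and 27168 CPM for the fibroblast markers. The endothelial list went from 44.4 to 21.6 CPM and the mural list from 44.0 to 30.8 CPM. Genes of the dissociation response summed to 15273 CPM at puberty and 19895 CPM in the adult. Their part in the results was not tested. The 2 libraries shared 145 cell barcodes.

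The ligand genes did not all move the same way between the stages. Sema3b, Sema3c, Sema3d and Sema3e were lower in the adult, whereas Sema3a and Slit2 were higher and Slit3 was nearly level. The receptor genes Robo1, Robo2 and Nrp1 were all higher in the adult. With a difference of 1.5-fold as the mark, 5 of the 10 genes were higher in the adult, beside 17.7% of the 13604 genes that reached 1 CPM, and 4 of the 10 were lower, beside 6.97% of those genes. The median log2 ratio of adult over puberty was 0.43 over the 10 genes and 0.17 over all genes, so each ratio is best read against that shift. Over all genes 2408 were higher and 948 lower in CPM, and 1678 and 1292 when the libraries were scaled by the trimmed mean of M-values (TMM). Under that scaling, Sema3a and Nrp1 were no longer past 1.5-fold and the other 7 calls were the same. With no requirement for Pdgfra, all 9 calls were the same. With equal weight for each group of cells, 3 genes were higher (Sema3a, Slit2 and Robo1) and 1 lower (Sema3d). No share over all genes is given under that weighting. The Sema3c call was also lost with at least 2 Pdgfra UMIs, with Scrublet doublets removed and without cells above the 99th percentile of genes.

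**Figure D1:**
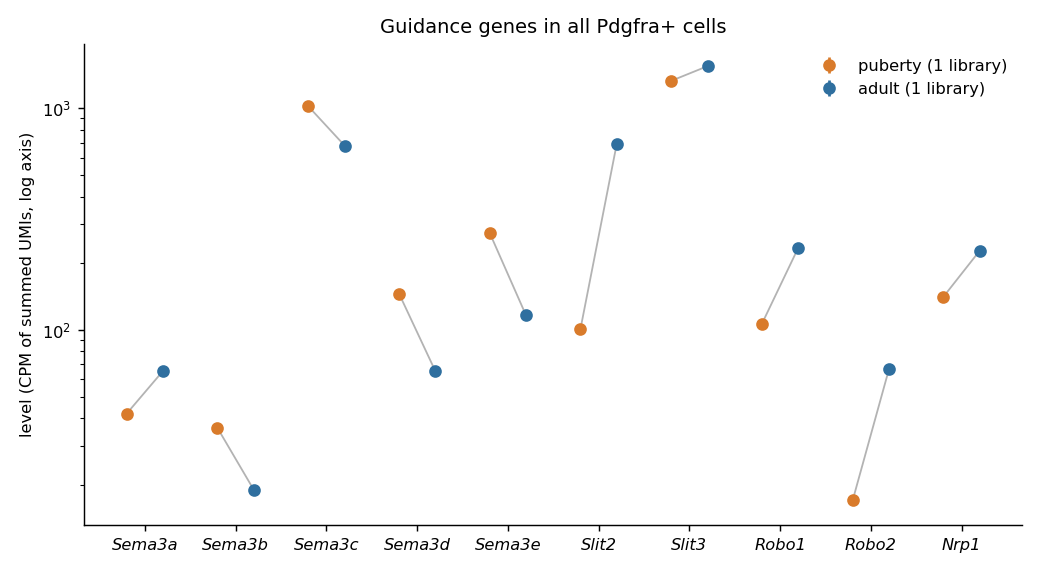
Level of each guidance gene in all Pdgfra+ cells, as CPM of summed UMIs on a log axis, with 1 point per stage and 1 library behind each point. The error bars are 95% Poisson intervals and are mostly smaller than the points. Slit2 shows the widest gap, from 101 to 693 CPM, and 4 of the 5 Sema3 genes lie lower in the adult.

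Sema3c, a semaphorin that acts on endothelial and epithelial cells, stood at 1022 CPM at puberty and 679.6 CPM in the adult. The ratio was 0.665 (0.661 to 0.669), at the edge of the 1.5-fold mark. Sema3d was at 146.0 CPM at puberty and 65.3 CPM in the adult, a ratio of 0.447 (0.439 to 0.456). Sema3e, a repellent ligand that can bind Plexin D1 without a neuropilin, had the lowest ratio of the 10 genes, 0.425 (0.419 to 0.431), from 273.7 to 116 CPM. Sema3b was at 36.1 CPM at puberty and 19.0 CPM in the adult, a ratio of 0.526 (0.508 to 0.545). Sema3a, the founding repellent of the class, went the other way, from 42.0 to 65.4 CPM, with a ratio of 1.56 (1.52 to 1.60).

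Slit2 was at 101 CPM at puberty and 693 CPM in the adult, 6.84-fold higher (6.75 to 6.94). This was the largest ratio of the 10 genes. Slit3 had 1331 CPM at puberty and 1550 CPM in the adult, a ratio of 1.16 (1.16 to 1.17), which is close to the median shift of all genes. Robo1 was at 107 and 235 CPM, a ratio of 2.20 (2.17 to 2.23). Robo2 was at 17.1 and 66.7 CPM, 3.90-fold higher in the adult (3.77 to 4.04). Nrp1 was at 141 and 228 CPM, a ratio of 1.61 (1.59 to 1.64).

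The share of cells in which a gene was detected moved the same way as its level. To compare the stages at 1 depth, each cell was thinned at random to 3000 UMIs, which left out 336 pubertal and 426 adult cells. Sema3c was then detected in 75.3% of pubertal and 42.5% of adult cells, and Slit2 in 12.3% and 44.2%. Sema3d went from 30.9% to 13.4% of cells and Sema3e from 27.5% to 11.6%. Sema3b went from 9.71% to 4.80%, and Sema3a from 9.75% to 14.98%. Robo1 was detected in 21.3% and 35.7% of cells, Robo2 in 2.82% and 11.4%, and Nrp1 in 28.9% and 36.0%. Slit3 was detected in 89.2% and 92.2%. Without thinning the shares were higher, 86.8% and 55.3% for Sema3c, 22.6% and 54.4% for Slit2, and 5.01% and 18.0% for Robo2. The unthinned shares of the other members were 25.7% and 30.8% for Sema3a, 32.1% and 17.2% for Sema3b, 62.3% and 28.7% for Sema3d, and 40.7% and 18.7% for Sema3e. They were 97.9% and 98.4% for Slit3, 43.1% and 57.1% for Robo1, and 61.7% and 65.4% for Nrp1.

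Free RNA in the droplets was gauged in mural cells, the contractile cells of small vessels, taken as cells with no Pdgfra UMI and with UMIs of at least 2 of 5 mural markers. There were 718 such cells at puberty and 410 in the adult, with median depths of 6364 and 6220 UMIs before thinning. After thinning to the same 3000 UMIs, Sema3c was found in 5.65% and 1.76% of them, Slit2 in 4.49% and 3.53%, Robo1 in 1.01% and 4.71%, and Robo2 in 0.145% and 1.18%. The other Sema3 genes were found in at most 1.47% of these cells. All of these shares of mural cells lay below those of the Pdgfra+ cells of the same stage. This did not hold for every other group without Pdgfra. At puberty, cells with Schwann markers held Slit2 in 20.5% and Sema3e in 33.3% of 39 thinned cells, beside 12.35% and 27.5% of Pdgfra+ cells. Cells with endothelial markers held Sema3d in 37.5% of 32 thinned cells, beside 30.9%, but also 21701 CPM of fibroblast markers. Sema3c lay below its 75.3% in both groups, at 41.0% and 59.4%. Slit3 and Nrp1 gave no such background, since mural cells held 713 and 772 CPM of Slit3, in 78.8% and 77.6% of cells, and 74.2 and 115 CPM of Nrp1, in 11.2% and 20.0%. Sema3b was also high in cells with Schwann markers and no Pdgfra, at 365 CPM at puberty (65 cells) and 130.1 CPM in the adult (61 cells). The adult group of those cells also held epithelial markers.

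The fibroblasts were next split by marker genes that the study uses for its fibroblast classes. Pi16 and Dpp4 mark mesenchymal progenitors in many tissues, Fabp4 marks cells on the way to adipocytes, Gdf10 and Fmo2 go with regulators of adipogenesis, Thbs4 and Bmp5 mark a class named for its lobular features, and Crabp1 encodes a retinoic acid binding protein. A cell counted for a subset with 1 UMI of the marker, of both markers for Pi16 and Dpp4, and with 2 UMIs for Fabp4. The Pi16+Dpp4+ subset held 74.1% of pubertal and 42.2% of adult cells, and the Gdf10 or Fmo2 subset 39.5% and 47.9%. The Thbs4 or Bmp5 subset held 4.91% and 14.8%, the Fabp4 subset 9.42% and 12.2%, and the Crabp1 subset 1.53% (289 cells) and 12.7% (2672 cells). Subsets overlapped, with 30.7% of pubertal and 35.5% of adult cells in 2 or more, and 3.74% and 11.9% were in none. Further markers of each class, not used for the split, were summed as a check. The lists for Pi16+Dpp4+, Thbs4 or Bmp5, and Fabp4 were highest in their own subset at both stages. The lists for Gdf10 or Fmo2 and for Crabp1 were highest in their own subset in the adult only, and at puberty both were highest in the Thbs4 or Bmp5 subset.

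Most of the semaphorin genes shared 1 pattern over the subsets. Sema3b, Sema3c, Sema3d and Sema3e were highest in the Pi16+Dpp4+ subset at both stages, and then fell in the order Gdf10 or Fmo2, Thbs4 or Bmp5, Fabp4 and Crabp1. Neighbours in this order whose counting intervals overlapped were the Fabp4 and Crabp1 subsets for Sema3b at both stages, Sema3d at puberty and Sema3e in the adult, and the Gdf10 or Fmo2 and Thbs4 or Bmp5 subsets for adult Sema3b. In cells of exactly 1 subset the values kept this order for Sema3c and Sema3d at both stages and for Sema3b at puberty. Counting intervals still overlapped between the Thbs4 or Bmp5 and Fabp4 groups for Sema3c at both stages, and between Fabp4 and Crabp1 for adult Sema3d. For pubertal Sema3b all neighbours below the Pi16+Dpp4+ group overlapped. Pubertal Sema3d was at 5.58, 5.30 and 2.37 CPM in Thbs4 or Bmp5, Fabp4 and Crabp1 cells, beside 6.57 CPM in mural cells. The intervals of those low groups overlapped. Sema3e in cells of exactly 1 subset was second highest in Crabp1 cells at puberty, at 34.7 CPM from 12 cells with a UMI. Then came 19.3 CPM for Gdf10 or Fmo2, 12.4 CPM for Fabp4 and 8.37 CPM for Thbs4 or Bmp5, beside 15.05 CPM in mural cells. In the adult it was at 11.2 CPM in Thbs4 or Bmp5 cells, 8.67 CPM in Gdf10 or Fmo2 cells, 3.85 CPM in Crabp1 cells and 2.38 CPM in Fabp4 cells. Intervals overlapped between Thbs4 or Bmp5 and Gdf10 or Fmo2 cells, and between Crabp1 and Fabp4 cells. Sema3b in the adult was at 8.38 CPM in Thbs4 or Bmp5 cells and 8.20 CPM in Gdf10 or Fmo2 cells. Adult Sema3b was detected in 1.96% of Fabp4 and 1.89% of Crabp1 cells after thinning, near the 1.47% of mural cells. The Crabp1 subset held the highest level of Slit2, Robo1, Robo2, Nrp1 and Sema3a at both stages. Slit3 was highest in the Fabp4 subset. Below the Crabp1 subset, intervals of neighbours overlapped for Slit2 and Robo1 at puberty and for Sema3a and Nrp1 in the adult. All 10 genes thus had the same highest subset at puberty and in the adult. In cells of exactly 1 subset this held for 7 genes, all but Sema3a, Slit3 and Nrp1, and with 2 UMIs for each marker and 3 for Fabp4 it held for all but Sema3a and Slit3. Cells of none of the subsets were not ranked. No share over all genes is given beside these counts, so they are not read as particular to guidance genes.

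**Figure D2:**
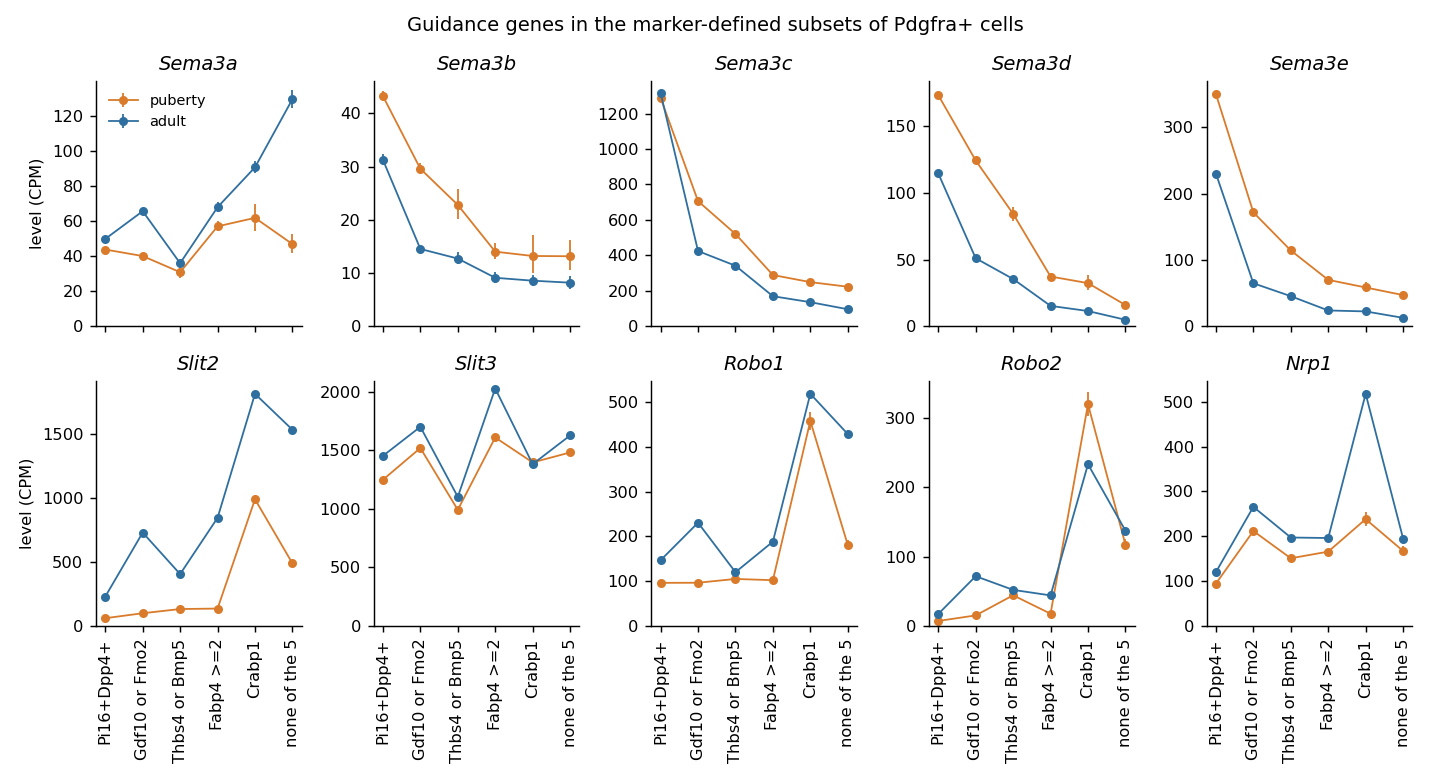
Level of each guidance gene, in CPM from 0, in the 5 marker-defined subsets and in cells of none of them, at puberty and in the adult. Points are summed UMIs of 1 library with 95% Poisson intervals, and cells may enter more than 1 subset. The upper row shows the descending course of Sema3b to Sema3e, and the lower row the peak of Slit2, Robo1, Robo2 and adult Nrp1 in the Crabp1 subset.

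In the Pi16+Dpp4+ subset Sema3c had 1288 CPM at puberty and 1316 CPM in the adult, a ratio of 1.02 (1.01 to 1.03). In the 4 other subsets, which share cells with it, Sema3c was lower in the adult, with ratios between 0.545 and 0.656. In cells of exactly 1 subset the ratio was 0.570 for Gdf10 or Fmo2 and 0.834 for Thbs4 or Bmp5. For Fabp4 it was 0.911 (0.798 to 1.04) and for Crabp1 1.52 (0.865 to 2.91), with both intervals across 1. The Pi16+Dpp4+ cells held 96.9% of all Sema3c UMIs at puberty and 94.6% in the adult, beside 76.8% and 48.8% of all UMIs of any gene. Sema3e was the most concentrated, with 98.3% and 96.7% of its UMIs in this subset. Its level there was 350 CPM at puberty and 230 CPM in the adult, 17.8-fold and 30.7-fold that of the other Pdgfra+ cells. Sema3d stood at 173 and 115 CPM in the subset, and Sema3b at 43.3 and 31.3 CPM. For these 3 genes the adult level was therefore lower inside the subset too, with ratios of 0.658 for Sema3e, 0.661 for Sema3d and 0.723 for Sema3b. In cells of this subset only, the ratios were nearer 1, at 0.799 for Sema3e, 0.802 for Sema3d and 0.851 for Sema3b.

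The Crabp1 subset held 248.9 CPM of Sema3c at puberty and 136 CPM in the adult, and 58.5 and 22.4 CPM of Sema3e. The Fabp4 subset held 289 and 169 CPM of Sema3c and 70.0 and 23.8 CPM of Sema3e. Summed mural markers were 318 and 139 CPM in the Fabp4 subset, beside 44.0 and 30.8 CPM in all Pdgfra+ cells. When cells with at least 2 markers of another cell type were left out, Sema3c in the Fabp4 subset was at 238 CPM at puberty and Sema3e at 57.9 CPM. Over the 10 genes, both stages and 5 subsets, this step changed 5 of the 100 levels by more than 10%, all of them Sema3 genes in the Fabp4 subset.

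Sema3a followed neither pattern. At puberty it ranged from 30.8 CPM in the Thbs4 or Bmp5 subset to 61.8 CPM in the Crabp1 subset, whose interval overlapped that of the Fabp4 subset at 57.0 CPM. In the adult it ranged from 35.9 to 90.6 CPM in the same subsets. Its highest adult level was in cells of none of the 5 subsets, 129.5 CPM beside 46.8 CPM at puberty. In cells of exactly 1 subset it spread more at puberty, from 7.57 CPM (Thbs4 or Bmp5) to 58.0 CPM (Fabp4). In cells of the Gdf10 or Fmo2 subset alone it went from 16.9 to 71.0 CPM, a ratio of 4.21 (3.79 to 4.69).

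Among the 5 Sema3 genes, 4 lie close together on mouse chromosome 5. In the RefSeq annotation of GRCm38.p6, Sema3d spans chr5:12383161-12588953, Sema3a chr5:13124822-13603485, Sema3e chr5:14025276-14256689 and Sema3c chr5:17574816-17730268. No protein-coding gene lies between Sema3d and Sema3a, 3 lie between Sema3a and Sema3e, and 15 between Sema3e and Sema3c. Sema3d and Sema3e, on either side of Sema3a, were lower in the adult, and Sema3a was higher. Slit2 is on the same chromosome, at chr5:47981291-48307735. Of the rest, Nrp1 is on chromosome 8, Sema3b on chromosome 9, Slit3 on chromosome 11, and Robo1 and Robo2 on chromosome 16.

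The 250 bases before a RefSeq start site are shown for the 3 linked semaphorin genes that shared a pattern over the subsets, and for Slit2, the gene with the largest stage ratio. They come from GRCm38.p6, all on the plus strand, at chr5:12382916-12383165 for Sema3d, chr5:14025026-14025275 for Sema3e, chr5:17574566-17574815 for Sema3c and chr5:47982905-47983154 for Slit2. Capitals mark a GC box (GGGCGG on either strand) or a TATA box (TATAAA on either strand), and E-boxes (CACGTG) were searched too.
Sema3d: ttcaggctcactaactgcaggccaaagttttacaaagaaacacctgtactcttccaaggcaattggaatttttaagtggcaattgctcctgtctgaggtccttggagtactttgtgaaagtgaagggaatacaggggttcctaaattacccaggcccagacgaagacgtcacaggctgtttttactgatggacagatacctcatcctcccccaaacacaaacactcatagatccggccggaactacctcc
Sema3e: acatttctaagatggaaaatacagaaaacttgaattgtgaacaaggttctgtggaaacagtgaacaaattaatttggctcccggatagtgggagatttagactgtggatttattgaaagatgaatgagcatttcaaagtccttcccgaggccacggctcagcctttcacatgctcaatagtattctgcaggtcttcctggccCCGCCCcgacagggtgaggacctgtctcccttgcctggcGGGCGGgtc
Sema3c: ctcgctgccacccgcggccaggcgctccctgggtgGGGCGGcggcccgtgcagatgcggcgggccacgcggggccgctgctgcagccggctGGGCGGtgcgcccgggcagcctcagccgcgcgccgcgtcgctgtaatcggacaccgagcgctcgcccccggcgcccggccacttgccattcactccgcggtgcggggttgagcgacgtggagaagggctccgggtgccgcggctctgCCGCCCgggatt
Slit2: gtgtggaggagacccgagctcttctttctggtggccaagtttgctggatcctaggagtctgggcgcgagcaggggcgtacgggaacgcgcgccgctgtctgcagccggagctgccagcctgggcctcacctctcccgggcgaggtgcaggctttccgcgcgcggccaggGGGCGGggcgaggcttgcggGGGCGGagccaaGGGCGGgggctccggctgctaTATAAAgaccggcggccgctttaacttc
The promoters of the 3 semaphorin genes had little in common at this level. Sema3c had 78.4% G and C, 39 CpG and 3 GC boxes, Sema3e 48.0%, 7 CpG and 2 GC boxes, and Sema3d 46.8%, 4 CpG and none of the 3 motifs. Slit2 had 69.6% G and C, 3 GC boxes and 1 TATA box. Of 32851 RefSeq promoters of this length, 32.7% held a GC box, 12.4% a TATA box and 6.02% an E-box, and the median G and C content was 52.4%. A match is a description of the letters only. Counts from the 3′ end do not tell which start site was in use.

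Slit2 in the Crabp1 subset was at 991 CPM at puberty and 1816 CPM in the adult. In the Pi16+Dpp4+ subset it was at 59.7 and 229 CPM, in the Gdf10 or Fmo2 subset at 98.5 and 730.1 CPM, in the Thbs4 or Bmp5 subset at 131.5 and 405 CPM, and in the Fabp4 subset at 135 and 846 CPM. Slit2 was thus higher in the adult in all 5 subsets, with ratios from 1.83 in the Crabp1 subset to 7.41 in the Gdf10 or Fmo2 subset. The 289 pubertal cells with Crabp1 held 17.5% of all Slit2 UMIs of that stage, beside 1.79% of the UMIs of any gene. In the adult the Crabp1 subset held 34.4% of Slit2 UMIs beside 13.1%. At 3000 UMIs, Slit2 was detected in 68.8% and 86.0% of the Crabp1 cells, and in 9.61% and 19.0% of the Pi16+Dpp4+ cells. Cells of none of the subsets were also high in Slit2, at 489 and 1535 CPM.

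Robo2 was the member most concentrated in the Crabp1 subset. It stood at 320 CPM there at puberty, 27.7-fold the level of the other Pdgfra+ cells (25.9 to 29.6), and at 233 CPM in the adult, 5.61-fold (5.44 to 5.78). Within the Crabp1 subset Robo2 was therefore lower in the adult, with a ratio of 0.729 (0.688 to 0.773). Robo2 was higher in the adult overall and in the 4 other subsets, which overlap. In cells of the Thbs4 or Bmp5 subset only it was at 37.9 and 30.7 CPM, a ratio of 0.81 (0.638 to 1.036). The Pi16+Dpp4+ subset held 7.02 and 17.1 CPM of Robo2 and the Gdf10 or Fmo2 subset 15.02 and 71.6 CPM. Robo1 was at 458 and 519 CPM in the Crabp1 subset, a ratio of 1.13 (1.08 to 1.19), and at 96.1 and 147 CPM in the Pi16+Dpp4+ subset. The Gdf10 or Fmo2 subset showed the largest Robo1 ratio, 2.39 (2.34 to 2.45), from 96.4 to 231 CPM.

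Nrp1 in the Crabp1 subset went from 238 CPM at puberty to 517.5 CPM in the adult, a ratio of 2.17 (2.04 to 2.32). In the other subsets its ratios lay between 1.18 and 1.31. The Pi16+Dpp4+ subset, which held most of the Sema3c, Sema3d and Sema3e UMIs, had the least Nrp1, 94.2 and 120 CPM. In cells of the Gdf10 or Fmo2 subset alone Nrp1 was at 441.5 and 369 CPM, the highest of the single-subset groups at puberty. Slit3 varied least, from 990 CPM in the Thbs4 or Bmp5 subset to 1608 CPM in the Fabp4 subset at puberty, and from 1101 to 2026 CPM in the adult.

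The stages differed in their mix of subsets as well as within subsets, and the genes differed in how much each part counted. The cells were divided into 7 groups that do not overlap, cells of 1 subset only, of none and of 2 or more, and the adult levels were averaged with the pubertal share of UMIs in each group. At the pubertal mix the Sema3c ratio was 1.03, beside 0.665 in all cells. Taking pubertal levels with the adult mix gave 0.740. For Sema3d the ratio was 0.654 at the pubertal mix and 0.796 from the mix alone, for Sema3e 0.686 and 0.713, and for Sema3b 0.724 and 0.810. Cells of 2 or more subsets held 35.2% of pubertal and 42.5% of adult UMIs. The mix within that group may differ between the stages, and the weighting does not hold it fixed. There Sema3d and Sema3e had ratios of 0.415 and 0.413, beside 0.802 and 0.799 in cells of the Pi16+Dpp4+ subset only. Slit2 stayed 4.43-fold higher at the pubertal mix, with 1.82-fold from the mix alone, and was higher in the adult in 7 of 7 groups. Robo2 was 2.40-fold higher at the pubertal mix and 2.47-fold from the mix alone. Robo1 gave 1.83 and 1.202, Nrp1 1.22 and 1.28, and Sema3a 1.40 and 0.966. With the same weight for cells of each single subset and of none, Sema3c and Robo2 changed direction, to log2 ratios of 0.07 and -0.14, and Slit2 moved to a log2 ratio of 1.37 from 2.77.

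**Figure D3:**
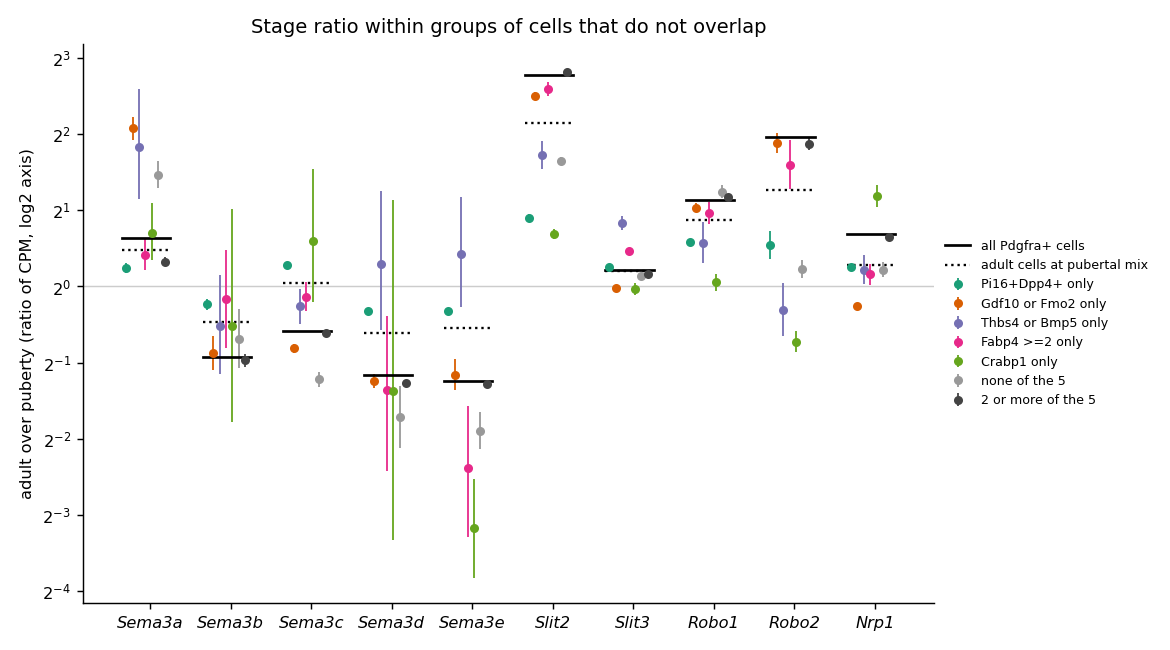
Ratio of adult over pubertal CPM on a log2 axis for each guidance gene, within 7 groups of Pdgfra+ cells that do not overlap (coloured points, 95% counting intervals), in all Pdgfra+ cells (black line) and with adult cells weighted to the pubertal mix (dotted line). Slit2, Robo1 and Sema3a lie above 1 in all 7 groups and Sema3b below 1 in all 7, whereas Robo2 in cells of the Crabp1 subset only is at 0.605.

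Ligands and receptors were then counted in the same cells at 3000 UMIs. Cells with none of the 5 Sema3 genes made up 18.0% at puberty and 44.2% in the adult, and cells with 2 or more made up 50.2% and 23.3%. A Slit gene was detected in 90.4% and 95.4% of cells, and a Robo gene in 22.7% and 39.5%. A Slit and a Robo gene together were found in 21.0% and 38.6% of cells, close to the shares with a Robo gene, since most cells had a Slit gene. Nrp1 together with a Sema3 gene was found in 20.9% and 17.4%. These joint shares were not set beside those that independent detection would give, so they are not read as co-occurrence.

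The number of cells with both genes of a pair was divided by the number that independent detection of each gene would give, a ratio that also holds the subset structure and any doublets, which were not removed here. This ratio was 4.43 for Slit2 and Robo2 at puberty and 1.95 in the adult. The ratio cannot pass a limit set by the more often detected gene of a pair, for this pair 8.10 at puberty and 2.26 in the adult, so ratios are not compared between the stages. At puberty 12.5% of cells with Slit2 had Robo2 (11.2 to 13.9), and 1.46% of cells without Slit2 (1.28 to 1.66). In the adult these shares were 22.2% and 2.84%. The pair was still at 4.01 and 2.21 among cells outside the Crabp1 subset, and at 2.14 and 3.60 within the Pi16+Dpp4+ subset. Robo1 and Robo2 gave 2.31 and 1.86, and Slit2 and Robo1 1.40 at both stages. Within the Pi16+Dpp4+ subset Slit2 and Robo1 were at 1.03 at puberty and 1.28 in the adult, and Robo1 and Robo2 at 1.69 and 1.98.

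The Sema3 genes of the Pi16+Dpp4+ subset also occurred together. Sema3d and Sema3e were at 1.25 at puberty and 2.43 in the adult, where the limits were 3.24 and 7.49. Sema3c and Sema3e were at 1.26 and 2.18, with limits of 1.33 and 2.35, and 94.9% and 92.6% of the cells with Sema3e had Sema3c. Within the Pi16+Dpp4+ subset these ratios were 1.06 and 1.05 at puberty, and 1.33 and 1.19 in the adult. Sema3e and Slit2 were found together less often than independence gives, at 0.676 and 0.283. Within the Pi16+Dpp4+ subset the same pair was at 0.868 and 0.566. Sema3d and Robo2 were at 0.458 and 0.121. Sema3a with Sema3d was at 1.09 at puberty and 0.743 in the adult.

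**Figure D4:**
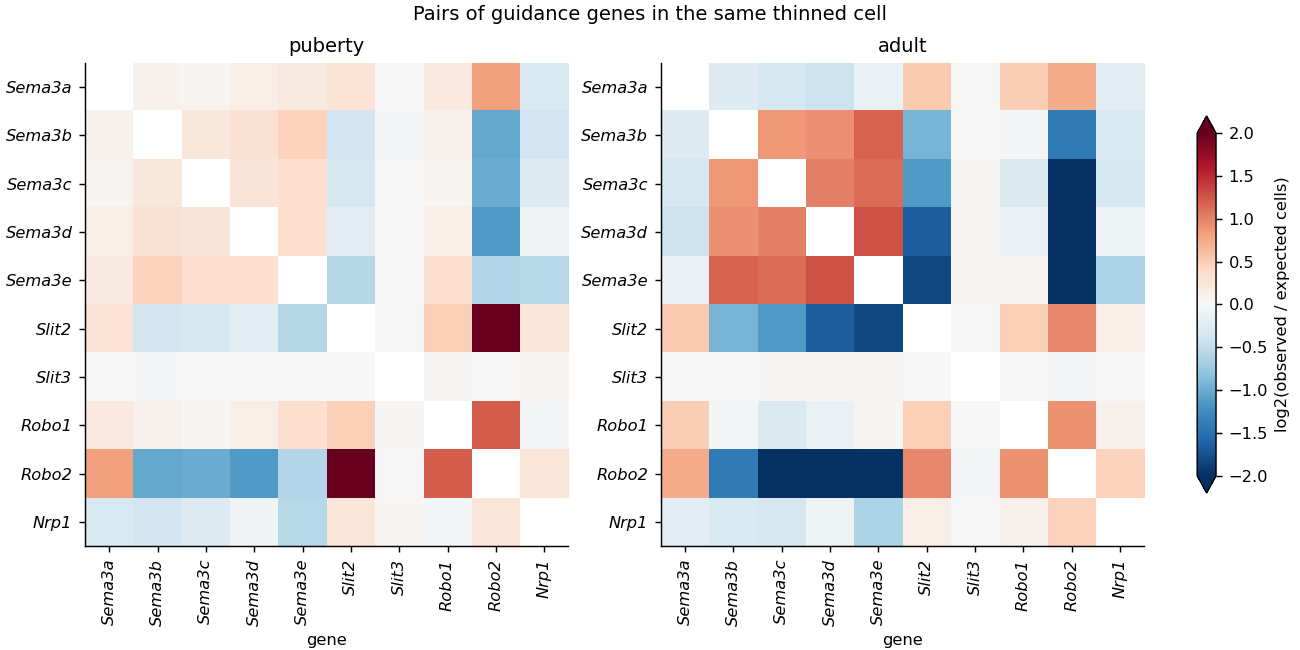
Observed over expected number of cells with both genes of a pair, as log2, at puberty and in the adult, in cells thinned to 3000 UMIs. Red squares are pairs found together more often than independence gives and blue squares less often; the adult panel shows Sema3b to Sema3e as a red block, and Slit2 with Robo2 is red at both stages.

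Over the subsets, the genes whose course was most like that of each guidance gene were sought among 8645 genes, by Pearson correlation of log2(CPM + 1) over 12 groups (the 5 single-subset groups and the cells of none, at both stages). The 12 groups share 2 libraries, so the values are descriptions. Sema3c was most like Rab38 (r = 0.989) and Gfpt2 (0.979), and Sema3b like Rab38 (0.983) and Arhgef28 (0.981). Sema3d was most like Ildr2 (0.977) and Gm36535 (0.958), and Sema3e like Mcub (0.966) and Adgrg6 (0.959). Slit2 was most like Faf1 (0.983) and Map2 (0.975), and Robo2 like St6galnac3 and Ptk7 (both 0.990). Robo1 was most like Galc (0.968) and Suclg2 (0.965), Nrp1 like Gm56862 (0.959) and Il1rapl1 (0.934), Slit3 like Homer3 (0.942) and Serpinb8 (0.935), and Sema3a like Dnase2a (0.933) and Ppp2r2a (0.931). Rab38 thus stood first for both Sema3b and Sema3c.

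Partners of the 10 genes were read from 6 further lists of 73 genes, of which 57 reached 1 CPM. By the 1.5-fold mark 21 were higher in the adult and 7 lower, and their median log2 ratio was 0.43 beside 0.17 over all genes, of which 17.7% were higher and 6.97% lower. With equal weight for each group of cells 6 of the 57 were higher and 6 lower, but no share over all genes is given under that weighting. Of 13 other semaphorins measured, 6 were higher (17.7% of all genes) and 3 lower (6.97%). Sema5a, a transmembrane semaphorin, went from 53.0 to 142 CPM, and Sema6a from 27.4 to 42.6 CPM. Sema4a, which also acts on immune cells, had the lowest ratio of all the named partners, 0.232 (0.216 to 0.248), from 17.9 to 4.15 CPM. Sema5a was highest in the Crabp1 subset at both stages, at 367 and 304 CPM.

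Plexins are the signalling receptors for semaphorins, and Nrp2 is the second neuropilin. Of the 8 measured, 4 were higher in the adult, namely Nrp2, Plxna2, Plxnc1 and Plxnd1, and Plxna4 was lower, beside 17.7% and 6.97% of all genes. Nrp2 went from 9.37 to 33.5 CPM, 3.57-fold (3.41 to 3.75). Like Nrp1, it was highest among the 5 subsets in the Crabp1 subset, at 42.7 and 67.8 CPM. Unlike Nrp1, it was higher still in adult cells of none of the subsets, at 78.2 CPM (74.4 to 82.1). Plxnd1, the receptor that Sema3e can bind directly, went from 8.33 to 16.9 CPM and was highest in the Fabp4 subset, at 29.4 and 39.0 CPM. Plxna1, the partner of neuropilins in axon repulsion, was at 53.4 and 39.6 CPM, and it was highest in the Pi16+Dpp4+ subset at 60.8 and 56.8 CPM.

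Downstream of Robo, the Slit-Robo GTPase-activating proteins were not past 1.5-fold, with Srgap1 at 464.5 and 379 CPM and Srgap2 at 149 and 217 CPM. Slit1, Robo3 and Robo4 stayed under 1 CPM at both stages. Of 4 measured genes in that list, 1 was higher, beside 17.7% of all genes, namely Gpc1, a glypican that binds Slit proteins, at 1.93 and 3.95 CPM. Of 9 semaphorin signal transducers, 1 was higher and 1 lower, which is near the 17.7% and 6.97% of all genes. The first was Mical2, a relative of the actin-oxidising enzyme that acts below plexins, at 14.5 and 53.3 CPM, and 213 and 161 CPM in the Crabp1 subset. The other was Dpysl3, a collapsin response mediator, at 457 and 304.5 CPM.

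Of 8 netrin-related genes measured, 5 were higher and 0 lower, beside 17.7% and 6.97% of all genes. Unc5c, a repulsive netrin receptor, went from 3.80 to 12.03 CPM, Rgma from 12.5 to 38.4 CPM and Rgmb, which like Rgma binds neogenin, from 42.0 to 66.7 CPM. Of 15 ephrins and Eph receptors, 4 were higher and 2 lower, not far from the 17.7% and 6.97% of all genes. The receptors Epha7 and Epha4 went from 10.7 to 39.4 CPM and from 22.1 to 51.9 CPM, and the ligand Efnb2 went from 43.5 to 20.5 CPM. Epha7 was highest in the Crabp1 subset, at 120.5 and 136 CPM. Efnb2 was highest in the Pi16+Dpp4+ subset, at 52.9 and 31.8 CPM.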

How the data were processed

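Single-cell RNA-seq libraries of sorted mammary stromal cells were made with the 10x Chromium GEM-X 3′ chemistry per the labels. The authors deposited, for each stage, a table of unnormalized counts (1 per UMI) for the called cells, made with Cell Ranger 8.0.1 against mm10 per the submitters' processing notes. The annotation is not given in the sources used here, and the study's methods differ in chemistry, in the age given for puberty and in the version of Cell Ranger, so the labels were followed. Gene positions and promoters are those of RefSeq for GRCm38.p6 and were matched by symbol for 10 of 10 genes.

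Counts were summed over cells and scaled to CPM (Python 3.11.15, numpy 2.4.6, scipy 1.17.1), with exact Poisson intervals for levels, conditional binomial intervals for ratios and Clopper-Pearson intervals for shares, checked on simulated data. All cover counting error only. With 1 library per stage nothing was tested, and a gene past 1.5-fold counted as higher or lower. The members and the lists were chosen with earlier results of these data known. Named are all 10 members, the 12 other pathway genes with the largest log2 ratio among those past 1.5-fold with at least 10 CPM in 1 library, and the 2 genes most like each member. Partners named beyond these (Plxna1, Plxna2, Plxnc1, Plxna4, Srgap1, Srgap2, Gpc1, Dpysl3, Slit1, Robo3 and Robo4) were chosen after their values were seen. Doublets were kept in the main values, and Scrublet (scanpy 1.11.5) removal was an alternative, as were TMM scaling (edgeR 4.0.16), other cell filters, other folds and other weights for the subsets.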

Additional observations from a re-analysis of the deposited data

Results flagged for a closer look

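For 4 genes, stage ratios of adult over puberty lay on opposite sides of 1 in groups of cells that do not overlap, with counting intervals clear of 1. The difference between the groups was not tested, since each stage has 1 library. Sema3c had a ratio of 1.22 in cells of the Pi16+Dpp4+ subset only (1437 and 1751 CPM) and 0.430 in cells of none of the subsets (223 and 95.9 CPM). Robo2 had a ratio of 3.69 in cells of the Gdf10 or Fmo2 subset only (22.1 and 81.4 CPM) and 0.605 in cells of the Crabp1 subset only (426 and 258 CPM). Nrp1 had 2.28 in cells of the Crabp1 subset only (324 and 739.6 CPM) and 0.836 in cells of the Gdf10 or Fmo2 subset only (441.5 and 369 CPM). Slit3 had 1.78 in cells of the Thbs4 or Bmp5 subset only (467 and 832.5 CPM). In cells of the Gdf10 or Fmo2 subset only it had 0.988 (1798 and 1776 CPM), where the interval ended just under 1. Cells of the Crabp1 subset only numbered 100 at puberty and 1042 in the adult. Without thinning, Nrp1 was detected in 81% and 76.3% of them, the other way from its level. After thinning its shares were 45.45% and 58.0%, with overlapping intervals. Robo2 shares in these cells fell as its level did, from 79% to 60.65% without thinning and from 56.6% to 39.2% after it.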

How the results depend on the processing

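With 1 library per stage, leaving out a replicate would leave no value. No paired analysis was possible because each stage has 1 library. Over the 10 genes and 10 settings, 57 of 100 log2 ratios moved by less than their counting interval, 41 moved by more with the same sign, and 2 changed sign. Both of the latter came with equal weight per group of cells, Sema3c at 0.067 and Robo2 at -0.14. Against 5 genes higher, 3 were higher with TMM scaling, 3 with equal weight per group and 3 at 2-fold. Against 4 genes lower, 1 was lower with equal weight per group and 2 at 2-fold. It was 3 with at least 2 Pdgfra UMIs, with Scrublet doublets removed (9.11% and 9.81% of cells) and without cells above the 99th percentile of genes, each time through Sema3c. Over all genes, against 2408 higher and 948 lower, the counts were 945 and 414 at 2-fold, 1040 and 440 with a minimum of 10 CPM, and 5645 and 3828 with a minimum of 1 UMI in each library. TMM gave 1678 and 1292. The main, 2-fold and TMM counts are out of 13604 genes. How many genes passed the other minimums is not given here, so no share is formed from those counts. No such counts over all genes are given for equal weight per group. Of the 57 other pathway genes, against 21 higher and 7 lower, 14 were higher and 4 lower at 2-fold, beside 945 and 414 of 13604 genes. With equal weight per group 6 were higher and 6 lower, with no share over all genes beside them. Dropping the Pdgfra requirement, an alternative chosen after seeing the data as were those on the pathway genes, gave 5 higher and 4 lower members. Apart from the equal weights, whose construction changes the mix of subsets, the cause was not tested. Of the 5 subsets the pubertal Crabp1 subset had the fewest cells, 289, of which 100 were in no other subset. Its median depth was 13850 UMIs.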
